A study of Mus musculus with 9 samples.

Results

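The replication-dependent histone genes were taken as every row of the gene table whose Ensembl identifier maps to a mouse symbol beginning Hist1h, Hist2h, Hist3h or Hist4h, which gave 70 genes of 54232 in the table. They comprise 6 linker histone H1 genes and 20 H2A, 19 H2B, 12 H3 and 13 H4 genes; 56 lie on chromosome 13, 10 on chromosome 3, 3 on chromosome 11 and 1 on chromosome 6. RNA-seq was made from primary embryonic neural stem cells of the mouse, labelled as coming from the subventricular zone of the brain. Every culture, controls included, grew on laminin in a proliferation medium with FGF at 10 ng/mL and EGF at 20 ng/mL, received a short hairpin RNA and was harvested 3 days later. The groups were sh900 and sh902, a pair of hairpins against Phf2, and shNT, a hairpin with no target. A short hairpin RNA is processed in the cell into a small RNA that lowers the transcript it matches, and Phf2 encodes a histone lysine demethylase of the KDM7 family. Each group had 3 libraries, of which 1 carries no date, 1 is labelled 30 August and 1 is labelled 3 September. The labels do not say what a date marks, whether libraries of a group are separate cultures or animals, or how the hairpins were delivered, so a p-value here reflects only how these libraries spread, and part of that spread may be technical. Values within a group are given as undated, 30 August and 3 September.

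Replication-dependent histone genes supply the histones that package newly copied DNA, and in dividing cells such as neural stem cells their mRNAs accumulate in S phase and are degraded when DNA synthesis stops. Their mRNAs usually end in a conserved stem-loop in place of a poly(A) tail; the stem-loop binding protein, encoded by Slbp, recognises it during 3' end processing, export and translation. The genes lie in clusters that are transcribed together in nuclear histone locus bodies organised by the protein NPAT. H2A, H2B, H3 and H4 form the nucleosome core, while H1 binds the linker DNA between cores.

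The stem-loop is shown because it defines the family's mRNA ends and because the gene models differ in where they place it. Its consensus of 16 bases (GG, any 2 bases, CTTTT, any base, AG, any 2 bases, then CC), searched on the transcript strand only, was present in a transcript of 44 of the 70 genes and in 0.087% of the 141767 GENCODE M21 transcripts searched. Each sequence below is 30 bases of the transcript, 5' to 3', with the stem-loop in capitals. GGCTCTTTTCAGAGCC was the most frequent form, in 26 genes of the H1, H2A, H2B and H3 types, and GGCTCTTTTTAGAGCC was found in 1 H2A gene. The forms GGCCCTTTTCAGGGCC in 7 genes, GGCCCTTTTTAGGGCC in 2 and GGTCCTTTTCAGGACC in 2 were found among H4 genes, and in none of the other types here.
Hist1h1c (H1): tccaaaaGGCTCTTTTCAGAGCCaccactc
Hist1h2ag (H2A): caacaaaGGCTCTTTTCAGAGCCacctaac
Hist2h2ac (H2A): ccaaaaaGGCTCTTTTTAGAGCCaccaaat
Hist1h2bb (H2B): acccaaaGGCTCTTTTAAGAGCCacccaca
Hist1h3c (H3): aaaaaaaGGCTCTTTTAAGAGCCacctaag
Hist1h4b (H4): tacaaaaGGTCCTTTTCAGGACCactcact
Hist1h4i (H4): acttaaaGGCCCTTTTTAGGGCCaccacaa
Hist1h4n (H4): aactaaaGGCCCTTTTCAGGGCCatccaat
Hist1h3c and Hist1h2bb share the form with an A at the last base of the loop, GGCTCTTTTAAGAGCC, which 6 genes carried. In 22 genes the model ended 3 to 74 bases after the stem-loop, in another 22 it ran on for 151 to 4884 bases, and in 26 the motif was not matched. A model without a match may end before the stem-loop or depart from the consensus, so it does not show a gene without a stem-loop.

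Promoters are shown because most of these genes moved together across libraries. RefSeq windows of 250 bases before to 50 after the start were available for 61 of the genes on GRCm38.p6, and were searched on both strands for CCAAT, for the TATA sequence TATAAA, for the octamer ATTTGCAT and for AAACACA, a box known from H1 promoters. CCAAT was present in 85.2% of the histone windows and in 37.4% of all 32851 windows. By type it was in 6 of 6 H1, 17 of 17 H2A, 16 of 16 H2B and 10 of 10 H3 windows, but in 3 of 12 H4 windows. TATAAA was in 57.4% of the histone windows and 13.6% of all windows, and the octamer was in 21.3% and 1.74%, with its matches in 7 H2A and 6 H2B genes. AAACACA was in 5 of the 6 H1 windows, 14.8% of the histone windows and 7.18% of all windows. The windows below, read on the gene's strand, carry these motifs in capitals; ATTGG and ATGCAAAT are CCAAT and the octamer on the other strand. A match describes the letters and is not evidence of binding.
Hist1h1b, chr13:21780576-21780875, minus strand: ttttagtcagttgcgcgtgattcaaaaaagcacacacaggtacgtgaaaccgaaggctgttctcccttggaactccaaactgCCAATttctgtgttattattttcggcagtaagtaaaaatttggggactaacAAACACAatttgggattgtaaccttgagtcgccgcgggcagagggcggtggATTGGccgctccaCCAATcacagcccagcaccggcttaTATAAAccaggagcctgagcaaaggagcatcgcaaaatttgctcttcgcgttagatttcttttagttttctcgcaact
Hist1h2ab, chr13:23750838-23751137, plus strand: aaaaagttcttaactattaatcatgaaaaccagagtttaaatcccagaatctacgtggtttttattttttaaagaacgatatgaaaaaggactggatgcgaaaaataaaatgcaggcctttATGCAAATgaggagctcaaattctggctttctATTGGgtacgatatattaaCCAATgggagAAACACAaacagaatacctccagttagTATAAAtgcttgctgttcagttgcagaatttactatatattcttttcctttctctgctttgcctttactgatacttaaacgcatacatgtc
Of the H2A genes, 14 stand head to head with an H2B gene whose start is 173 to 306 bases away, so that a pair shares the region between its starts.

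Library totals ran from 23212472 to 32392496 counts, and Phf2 was lower in each hairpin library, at 13.5 to 29.2 CPM (counts scaled by the library total), than in each shNT library, at 49.5 to 57.4 CPM. Markers of the labelled cell type, 14 genes with Nes and Sox2 among them, summed to between 7758 and 13085 CPM. The sums were 473 to 1945 CPM for 8 neuronal and 1.35 to 53.4 CPM for 7 fibroblast markers. They were 0.639 to 3.37 CPM for 7 microglial and 2.80 to 9.55 CPM for 6 endothelial markers. The expression filter kept 17602 genes, among them 65 of the 70 histone genes. Those below it were Hist1h1t, Hist1h2aa and Hist1h2ba, known as testis histone genes, and Hist1h2aj and Hist1h2ao, each under 0.5 CPM in every library. Because the libraries of each dated label resembled each other, fits with and without a term for the label (the replicate block) are given where they differ. The undated control resembled its own label less: its deviations from group means correlated at 0.144 with undated sh900 and 0.0792 with undated sh902. They correlated at 0.284 and 0.301 with sh900 and sh902 of 3 September.

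Histone RNA made up 0.807%, 0.358% and 0.611% of all counts with sh900, 1.04%, 0.510% and 0.912% with sh902, and 0.679%, 1.25% and 0.287% with shNT. The highest and the lowest of the 9 libraries were thus both controls: shNT of 30 August and shNT of 3 September, 4.36-fold apart. The summed level of the 70 genes averaged 5919 ± 2252 CPM with sh900, 8192 ± 2749 CPM with sh902 and 7386 ± 4844 CPM with shNT (SD, n = 3 each), so the groups overlapped. Within a label, both hairpin libraries held more histone RNA than shNT when undated (1.19-fold with sh900 and 1.53-fold with sh902) and on 3 September (2.13-fold with sh900 and 3.18-fold with sh902). On 30 August they held less, at 0.286 of the shNT level with sh900 and 0.408 of it with sh902. In bulk RNA, fewer cells in S phase and less histone mRNA per cell cannot be told apart.

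**Figure D1:**
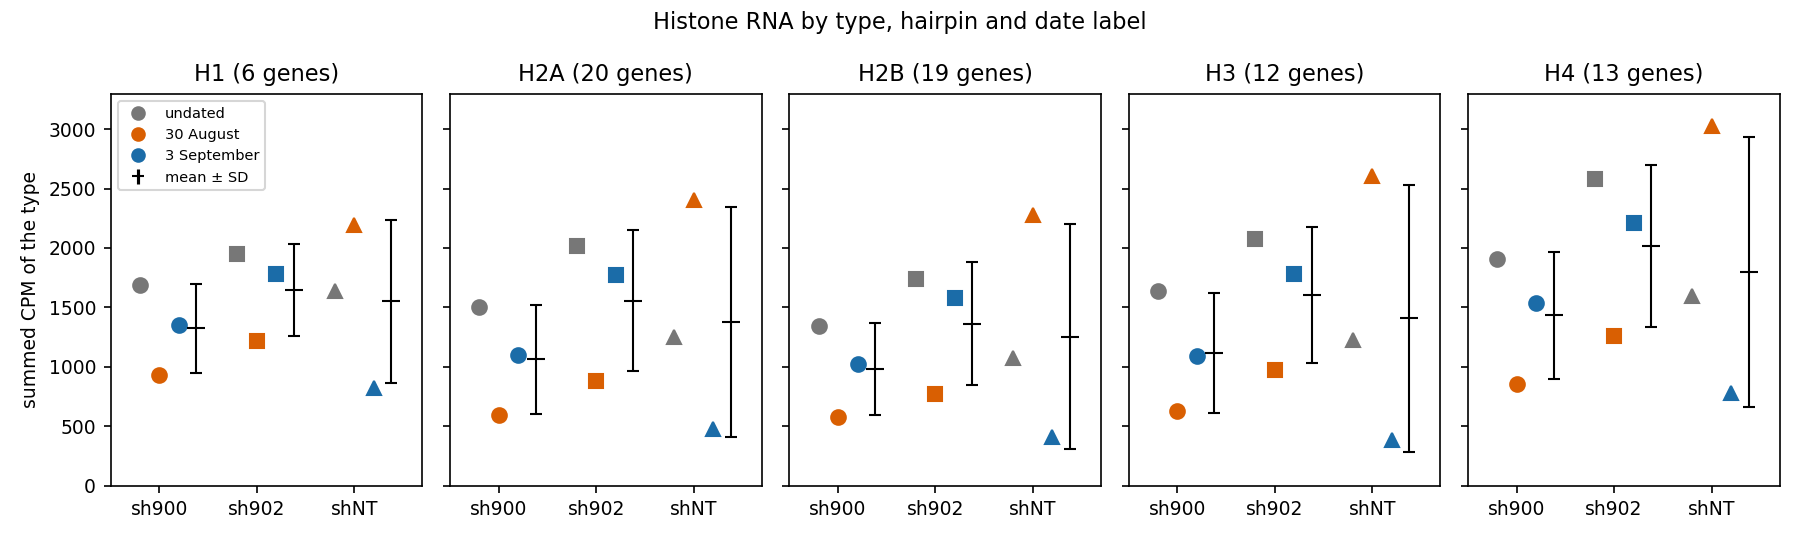
Summed level of each histone type in CPM (vertical axis) in the 3 libraries of each group, with points coloured by date label and the mean and SD (n = 3) beside them. In all 5 types the shNT library of 30 August is the highest of the 9 and that of 3 September the lowest, with sh900 and sh902 in between.

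The 5 types followed the same order of libraries but not to the same extent. Summed H1 RNA stood at 1684, 932 and 1352 CPM with sh900, 1951, 1214 and 1779 CPM with sh902, and 1635, 2190.0 and 825 CPM with shNT. H3 RNA spread more, at 1637, 625 and 1095 CPM with sh900, 2072, 969 and 1778 CPM with sh902, and 1229.7, 2609 and 383 CPM with shNT. In each type the control of 30 August was the highest library and the control of 3 September the lowest. H1 accordingly took a share of histone counts that ran against the total: 20.9%, 26.0% and 22.1% with sh900, 18.8%, 23.8% and 19.5% with sh902, and 24.1%, 17.5% and 28.8% with shNT. The share of shNT on 30 August (Wilson 95% interval 17.4% to 17.6%) was the lowest and that of 3 September (28.4% to 29.1%) the highest of the 9; these intervals cover counting error only, since reads without molecular identifiers are not independent molecules. Among single genes the ratio of the highest to the lowest library ran from 1.82 for Hist1h1c to 15.1 for the pseudogene Hist3h2bb-ps, with a median of 6.51. The control of 30 August was the highest library for 58 of the 65 tested genes, and the control of 3 September was the lowest for 52.

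**Figure D2:**
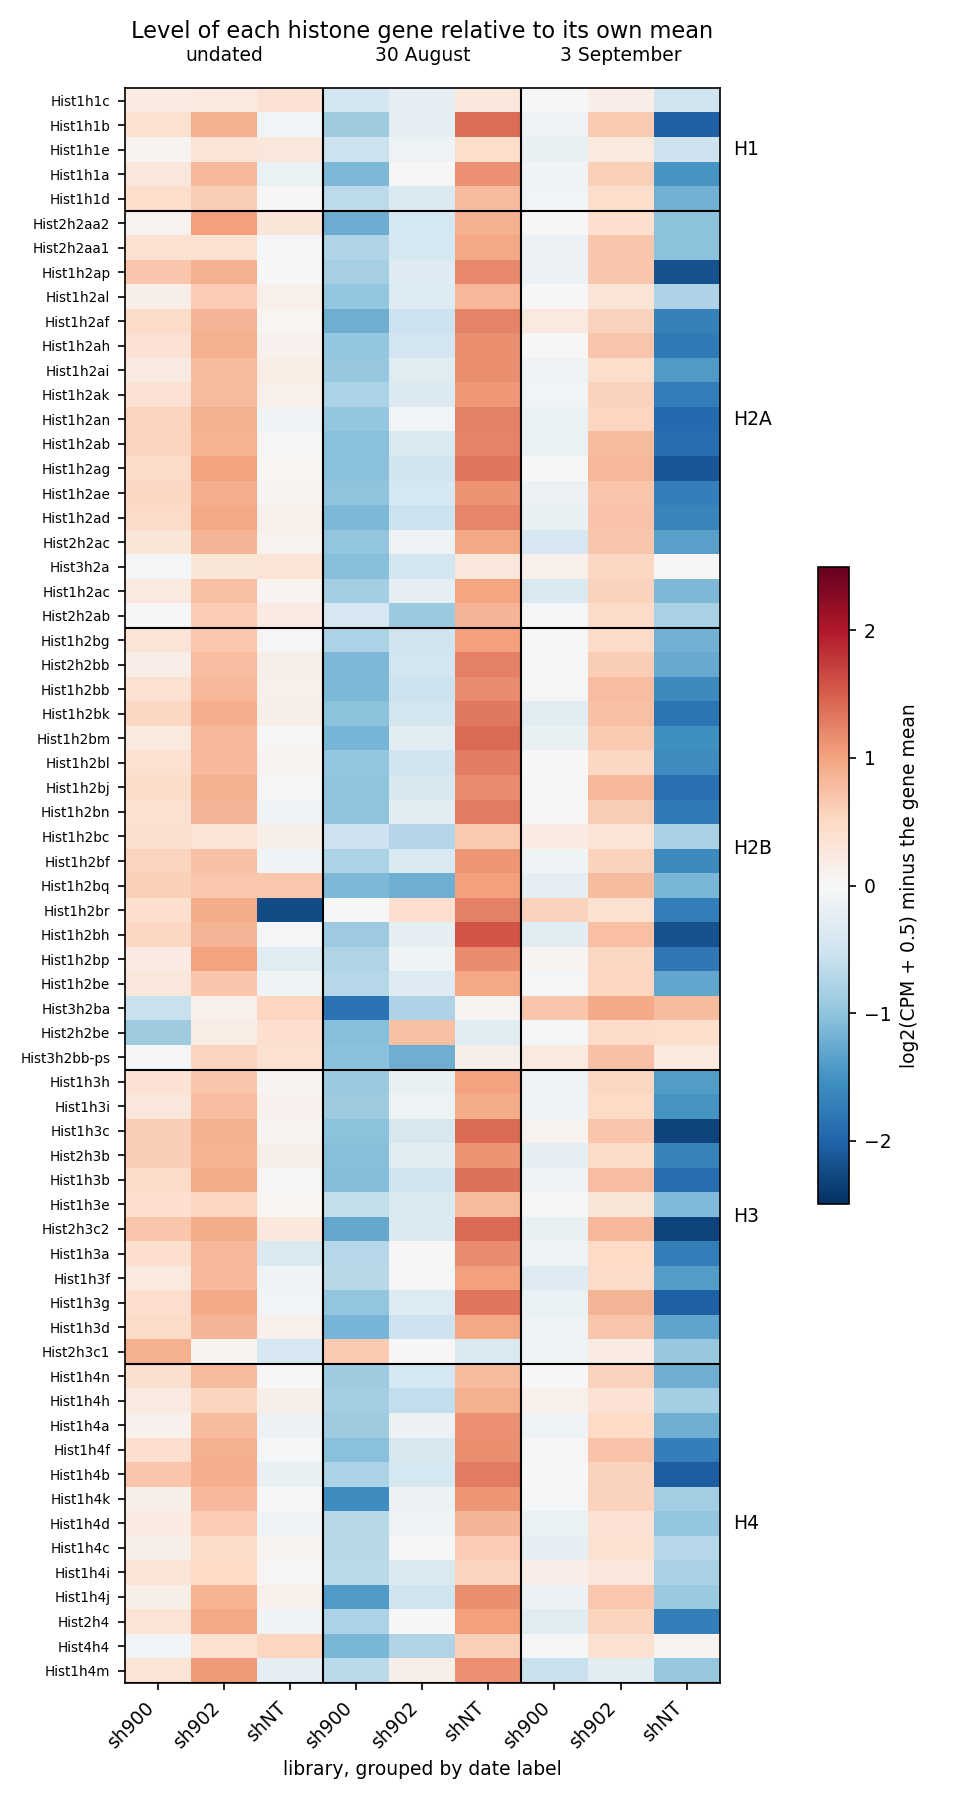
Level of each of the 65 tested histone genes (rows, by type) in the 9 libraries (columns, by date label, then hairpin), as log2(CPM + 0.5) minus the gene's mean over the libraries. On 30 August the shNT column is red beside 2 mostly blue hairpin columns, and on 3 September it is dark blue beside 2 paler or red ones; Hist2h2be, Hist2h3c1, Hist3h2a, Hist3h2ba, Hist3h2bb-ps and Hist4h4 are among those that depart from this.

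No common histone change with the Phf2 hairpins that exceeded the spread between libraries was detected. In edgeR's quasi-likelihood test without the date label as a term, 0 of the 65 genes were called at an adjusted p under 0.05 for the mean of both hairpins, for sh900 or for sh902 against shNT, or for sh902 against sh900, and neither was any other gene (0.0% of 17602). At an unadjusted p under 0.05 the counts of histone genes were 1, 2, 0 and 1 in that order, where 16.0%, 14.7%, 15.8% and 14.4% of all tested genes were. DESeq2 called 1, 1, 0 and 1 histone genes, and 4.29%, 4.47%, 4.82% and 5.88% of all genes. The median log2 fold change over the 65 genes was -0.10 for the mean of both hairpins, -0.33 for sh900 and 0.14 for sh902 against shNT, where over all tested genes it was -0.04, -0.03 and -0.03. These medians moved with single libraries. With the shNT library of 30 August left out they were 0.70, 0.47 and 0.93, and with that of 3 September left out -0.50, -0.75 and -0.28. For the mean of both hairpins the median was 0.035 without sh900 of 30 August, and the same without sh902 of 30 August. With the replicate block and the shNT library of 30 August left out, 46 genes were called higher for the mean of both hairpins, 15 higher and 1 lower for sh900 and 52 higher for sh902. In that fit 10.8% of all tested genes were called higher for the mean, 9.2% higher and 6.75% lower for sh900, and 10.9% higher for sh902. With the block but without the shNT library of 3 September, 0 histone genes were called in each. Without the block, leaving out the shNT library of 30 August gave 1 call with sh902, higher, as for 0.0329% of all genes.

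With the replicate block and all 9 libraries, 1 histone gene rose: Hist2h3c1, an H3 gene of the chromosome 3 cluster (ENSMUSG00000093769, chromosome 3, 96246685 to 96248509 on GRCm38, plus strand). It stood at 9.94, 8.40 and 4.75 CPM with sh900, 5.38, 5.14 and 5.99 CPM with sh902, and 3.72, 3.87 and 2.41 CPM with shNT, and it was the only tested histone gene above shNT with both hairpins at all 3 labels, a pattern that 12.7% of all tested genes showed. No histone gene was below shNT with both hairpins at all 3 labels, as 12.2% of all tested genes were. Its log2 fold change was 0.998 ± 0.267 for the mean of both hairpins (SE, adjusted p = 0.0489) and 1.24 ± 0.30 for sh900 (SE, adjusted p = 0.0408). It was 0.75 ± 0.30 for sh902 (SE, adjusted p = 0.144), and the hairpins differed by -0.49 ± 0.30 (sh902 over sh900, SE, adjusted p = 0.375). In this fit 6.08% of all tested genes were called higher for the mean of both hairpins, 5.39% for sh900 and 5.12% for sh902. Without the block the values were 0.98 ± 0.32 (adjusted p = 0.240), 1.27 ± 0.35 (adjusted p = 0.197) and 0.69 ± 0.35 (adjusted p = 0.366). DESeq2 without the block called Hist2h3c1 for the mean (0.98, adjusted p = 0.0495) and for sh900 (1.28, adjusted p = 0.0198). It called 4.29% and 4.47% of all genes there. The blocked call for the mean was lost in 6 of the 9 fits that left out a library and was kept without sh900 of 3 September, sh902 of 30 August or shNT of 30 August, with adjusted p from 0.0434 to 0.196 over the 9. The call for sh900 was lost in 5 of the 9, without undated sh900, sh900 of 30 August, undated sh902, undated shNT or shNT of 3 September. In the blocked fit on the dated libraries alone neither was called (adjusted p = 0.329 for the mean and 0.372 for sh900), and of all tested genes 0.00566% and 0.0226% were. Hist2h3c1 lies wholly within the gene model Gm20634 on the same strand, from 96245554 to 96248509, and all of its 50-base windows occur there too. Gm20634 itself stood at 47.3, 35.9 and 47.0 CPM with sh900, 15.8, 22.4 and 21.8 CPM with sh902, and 33.6, 8.12 and 28.2 CPM with shNT, so the division of reads between the overlapping models is uncertain.

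Between the hairpins, sh902 libraries held more histone RNA than sh900 libraries at each label, 1.28-fold when undated, 1.42-fold on 30 August and 1.49-fold on 3 September. For 59 of the 65 genes sh902 was above sh900 at all 3 labels, which held for 31.1% of all tested genes; with TMM-scaled CPM it was 57 of 65 and 26.2%. The exceptions were Hist1h2bc, Hist1h2bq, Hist1h2br, Hist2h2ab, Hist2h3c1 and Hist3h2bb-ps, joined under TMM scaling by Hist1h1c and Hist2h2aa1. The median log2 fold change of sh902 over sh900 was 0.51, against -0.01 over all tested genes. No histone gene passed the test of this difference, without the block (0.0% of all genes) or with it (4.22%). DESeq2, which called 5.88% of all genes here, called 1, Hist2h2be, at a log2 fold change of 1.11 (adjusted p = 0.0329). Phf2 stood at 19.0, 13.5 and 26.8 CPM with sh900 and at 25.7, 17.0 and 29.2 CPM with sh902.

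The hairpin effect differed between the dates for most histone genes. It is the log2 level fitted to a label's 2 hairpin libraries together, not their mean log2, minus that of the shNT library. It was larger on 3 September than on 30 August for 34 of the 65 genes and smaller for 0 in edgeR's quasi-likelihood test of the difference itself, adjusted over all genes, against 1.37% and 0.017% of all tested genes called in these directions. By type 2 of 5 H1, 9 of 17 H2A, 11 of 18 H2B, 7 of 12 H3 and 5 of 13 H4 genes were called. The median difference was 3.29 on the log2 scale over the histone genes and -0.05 over all tested genes. The sign of the effect itself turned: 60 of the 65 genes were below shNT with both hairpins on 30 August and above it with both on 3 September, under library-total and under TMM scaling, where 11.0% and 9.47% of all tested genes did so. The exceptions were Hist2h2be, Hist2h3c1, Hist3h2ba, Hist3h2bb-ps and Hist4h4. None showed the reverse, which 7.82% of all tested genes did by library total. Taken alone, the effect had a median of -1.66 on 30 August (0 genes called, 63 at an unadjusted p under 0.05, DESeq2 52 lower) and of 1.59 on 3 September (0 called, 53 at an unadjusted p under 0.05, DESeq2 47 higher). Of all tested genes 11.7% had an unadjusted p under 0.05 on 30 August and 11.6% on 3 September, and DESeq2 called 2.64% lower on 30 August and 4.32% higher on 3 September. In the undated libraries the median was 0.57, with 0 called by edgeR and 2 by DESeq2, and 3 at an unadjusted p under 0.05, where 7.08% of all genes were called by DESeq2 and 16.7% had such a p. The shares of all genes called by edgeR on 30 August, on 3 September and in the undated libraries were 0.0%, 0.165% and 0.0%.

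Each label has 1 control library, so the test assumes that it varies as the 2 hairpin libraries of a label do, and the direction rests on the dated shNT pair. From 30 August to 3 September the shNT pair changed by a median of -2.54 on the log2 scale over the histone genes, while the sh900 pair changed by 0.84 and the sh902 pair by 0.97. The number of calls fell to 0 without the sh902 library of 3 September, 3 without sh900 of 30 August, 17 without undated sh902, 17 without sh902 of 30 August and 20 without undated sh900, while the median stayed between 2.98 and 3.75 in every fit that left out a library. DESeq2 called 57 (3.08% of all genes higher), scaling by library size alone gave 19 and the dated libraries alone 16. Between the dates within the hairpin libraries, 1 gene was called, the pseudogene Hist3h2bb-ps at 3.01 ± 0.60 (SE, edgeR adjusted p = 0.0483), where 2.71% of all tested genes were called higher; DESeq2 called 18, and 6.4% of all genes higher. Hist3h2bb-ps stood at 0.926, 0.215 and 1.24 CPM with sh900, 1.66, 0.128 and 1.94 CPM with sh902, and 1.41, 1.13 and 1.24 CPM with shNT, so the 30 August hairpin values rest on few counts, and its call was kept in the fit without sh902 of 30 August and lost in the fits without any other hairpin library.

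**Figure D3:**
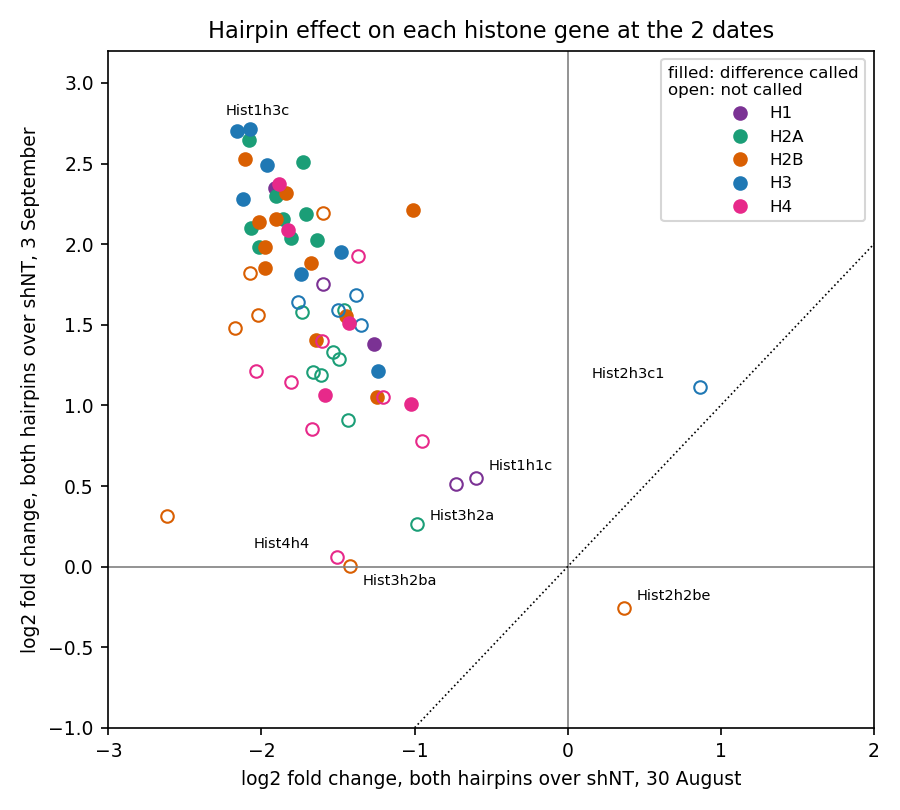
Hairpin effect on each of the 65 tested histone genes, as the log2 fold change of both hairpin libraries over shNT on 30 August (horizontal axis) and on 3 September (vertical axis); filled points are genes whose difference between dates was called, and the dotted line marks equal effects. Most genes lie to the left of 0 and above 0, far from the dotted line, with Hist2h3c1 and Hist2h2be to the right of 0.

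Among the linker histones, the genes for H1 subtypes split into strongly and weakly varying ones. Hist1h1c (ENSMUSG00000036181, chromosome 13, 23738808 to 23740367 on GRCm38, plus strand) was the most abundant per kilobase of exon, at 370 CPM per kb averaged over the 9 libraries. It stood at 647, 403 and 564 CPM with sh900, 669, 474 and 634 CPM with sh902, and 726, 677 and 398 CPM with shNT, and the groups overlapped. Its effect differed by 1.15 ± 0.30 (SE, adjusted p = 0.245) between dates, which was not called. Hist1h1e, the next most abundant by CPM, stood at 344, 223 and 286 CPM with sh900, 415, 298 and 386 CPM with sh902, and 396, 441 and 229 CPM with shNT and was not called either, at 1.25 ± 0.39 (SE, adjusted p = 0.383). Hist1h1b (ENSMUSG00000058773, chromosome 13, 21779883 to 21780625 on GRCm38, minus strand), whose promoter is printed above, stood at 149.9, 62.1 and 108 CPM with sh900, 215, 96.5 and 182 CPM with sh902, and 109, 303 and 27.7 CPM with shNT. Its control library of 30 August was 10.9-fold above that of 3 September, with all hairpin libraries between them, and the difference between dates was 4.26 ± 0.60 (SE, adjusted p = 0.0327). Hist1h1d was called too, at 2.64 ± 0.39 (SE, adjusted p = 0.038), while Hist1h1a had 3.35 ± 0.71 (SE, adjusted p = 0.128).

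The H2A genes with the highest levels per kilobase were Hist2h2aa2 and Hist2h2aa1, copies that cannot be separated with confidence. All 50-base windows of Hist2h2aa2 and 89.4% of those of Hist2h2aa1 also occur in the gene model Gm20634, so even their sum may miss or gain reads. Summed, the pair stood at 433, 186 and 344 CPM with sh900, 604, 268 and 541 CPM with sh902, and 403, 696 and 178 CPM with shNT, with the controls of the dated labels at the extremes. Hist1h2ag (ENSMUSG00000069301, chromosome 13, 22042460 to 22042944 on GRCm38, minus strand), which has its stem-loop near the model end, stood at 63.6, 22.0 and 46.7 CPM with sh900, 92.7, 32.4 and 82.6 CPM with sh902, and 47.6, 117 and 10.1 CPM with shNT. Its difference between dates was 4.73 ± 0.62 (SE, adjusted p = 0.027), and every hairpin library lay between the 2 dated controls. Hist1h2ap, Hist1h2af, Hist1h2ah and Hist1h2ak, further core H2A genes of chromosome 13, were called as well, at 4.24 ± 0.57, 4.17 ± 0.47, 4.01 ± 0.55 and 3.66 ± 0.51 (SE, adjusted p from 0.0189 to 0.0314). Hist3h2a, of the small chromosome 11 cluster, varied less, at 64.5, 32.0 and 73.7 CPM with sh900, 83.1, 47.9 and 96.0 CPM with sh902, and 85.6, 80.3 and 68.9 CPM with shNT. Its hairpin libraries were below the control on 30 August and above it on 3 September, with a difference of 1.25 ± 0.43 (SE, adjusted p = 0.474). The H2A genes Hist2h2aa2, Hist2h2aa1 and Hist1h2al, the last annotated as a pseudogene, had differences of 2.87, 2.87 and 2.34 that were not called.

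Of the H2B genes, Hist1h2bg had the highest level per kilobase and stood at 216, 99.2 and 166 CPM with sh900, 274, 121 and 241 CPM with sh902, and 175, 351 and 74.9 CPM with shNT. Its difference between dates was called, at 3.05 ± 0.43 (SE, adjusted p = 0.0318). Hist1h2bb, whose stem-loop is printed above, stood at 123, 42.9 and 91.7 CPM with sh900, 168, 64.9 and 160.0 CPM with sh902, and 102, 215 and 31.0 CPM with shNT, with a difference of 3.96 ± 0.60 (SE, adjusted p = 0.04). In both genes the 30 August control was above all 6 hairpin libraries and the 3 September control below them. Hist1h2bk and Hist1h2bl were called at 4.15 ± 0.66 and 3.83 ± 0.47 (SE, adjusted p = 0.0472 and 0.0218), and Hist2h2bb, at 3.58 ± 0.59 (SE, adjusted p = 0.0529), was not. Hist1h2br was called at 3.22 ± 0.40 (SE, adjusted p = 0.0225), but it shares sequence with Hist1h2bq, of whose 50-base windows 97.3% occur in it, and the undated control listed only 13.9 CPM for Hist1h2br beside 166 CPM for Hist1h2bq. Their sum, 248, 115 and 190.3 CPM with sh900, 296, 136 and 269 CPM with sh902, and 180.3, 377 and 67.0 CPM with shNT, put the undated control back between the dated ones.

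Hist2h2be (ENSMUSG00000068854, chromosome 3, 96221119 to 96223738 on GRCm38, plus strand) departed most from the other H2B genes. It stood at 2.96, 2.55 and 5.71 CPM with sh900, 6.72, 10.1 and 8.36 CPM with sh902, and 8.08, 4.85 and 8.19 CPM with shNT. Both hairpin groups overlapped shNT, while each sh902 library was above each sh900 library. On 30 August the log2 difference of Hist2h2be from shNT was -0.91 with sh900 and 1.04 with sh902. Its difference between dates was -0.63 ± 1.13 (SE, adjusted p = 0.982), the lowest of the 65 genes and not called, with an effect of 0.37 on 30 August and -0.26 on 3 September. Without the sh902 library of 30 August it was 0.65 ± 0.86 (SE, adjusted p = 0.892), so its direction is not settled. Its head-to-head partner Hist2h2ac, whose start is 239 bases away and which was picked for that position, stood at 48.2, 19.4 and 29.1 CPM with sh900, 70.7, 35.6 and 63.6 CPM with sh902, and 41.5, 76.5 and 15.0 CPM with shNT. Hist2h2ac was highest in the 30 August control and lowest in the 3 September control, at 3.05 ± 0.77 (SE, adjusted p = 0.223). Per kilobase of exon Hist2h2ac averaged 85.4 CPM and Hist2h2be, over 2620 bases of exon, 2.44 CPM. The pair Hist1h2ag and Hist1h2bj, with starts 270 bases apart, had closer levels of 118 and 96.5 CPM per kb and differences of 4.73 ± 0.62 and 4.16 ± 0.62. Hist3h2ba, at 4.66, 1.62 and 11.8 CPM with sh900, 7.82, 3.94 and 14.0 CPM with sh902, and 10.5, 7.48 and 12.5 CPM with shNT, followed the date in all 3 groups, with its 3 September library the highest of each; its effect differed by 1.42 ± 0.75 (SE, adjusted p = 0.777).

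Hist1h3c (ENSMUSG00000069310, chromosome 13, 23744973 to 23745602 on GRCm38, minus strand), an H3 gene, had the second smallest adjusted p of the family for the difference between dates. It stood at 211, 67.3 and 145 CPM with sh900, 254, 104 and 222 CPM with sh902, and 144, 366 and 27.3 CPM with shNT. The 30 August control exceeded the 3 September control 13.4-fold, and the 6 hairpin libraries lay between them; the difference of effects was 4.79 ± 0.52 (SE, adjusted p = 0.0172). Hist1h3h and Hist1h3i, the H3 genes with the highest levels per kilobase at 402 and 292 CPM per kb, had differences of 3.09 ± 0.55 and 3.07 ± 0.57 that were not called (SE, adjusted p = 0.0698 and 0.0787). Hist2h3b was called at 3.55 ± 0.57 (SE, adjusted p = 0.0474) and Hist1h3e at 2.45 ± 0.34 (SE, adjusted p = 0.0308). Hist2h3c1 was the exception, at 0.26 ± 0.81 (SE, adjusted p = 0.992), with both hairpins above shNT at both dates.

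The H4 genes contained the most abundant member, Hist1h4n, at 731 CPM per kb. It stood at 374, 153 and 287 CPM with sh900, 488, 208 and 421 CPM with sh902, and 284, 493 and 121 CPM with shNT, and its difference between dates was 2.94 ± 0.45 (SE, adjusted p = 0.0429). Hist1h4b (ENSMUSG00000069266, chromosome 13, 23757013 to 23757409 on GRCm38, plus strand), which carries the rarer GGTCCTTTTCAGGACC stem-loop and none of the 4 promoter motifs in its window, stood at 149, 52.7 and 91.5 CPM with sh900, 173, 67.7 and 138 CPM with sh902, and 80.4, 227 and 21.5 CPM with shNT. Its difference of 4.26 ± 0.46 (SE, adjusted p = 0.0166) had the smallest adjusted p of the family, and all hairpin libraries lay between the 2 dated controls. Hist1h4h and Hist1h4f were called at 2.65 ± 0.34 and 3.92 ± 0.57 (SE, adjusted p = 0.0240 and 0.0366), while Hist1h4a, at 3.00 ± 0.60 (SE, adjusted p = 0.107), was not. Hist4h4, the single member on chromosome 6, stood at 68.8, 32.6 and 70.7 CPM with sh900, 94.5, 42.8 and 93.7 CPM with sh902, and 104, 109 and 76.7 CPM with shNT. It was lower with both hairpins than with shNT on 30 August, while on 3 September sh900 was below and sh902 above the control, and its difference was 1.57 ± 0.42 (SE, adjusted p = 0.25).

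The difference between dates had its highest median in the class of genes whose model stopped close after the stem-loop. In that class 15 of 21 tested genes were called, with a median difference of 3.92, where 1.37% of all tested genes were called higher. Of the genes whose model extended more than 100 bases past it, 8 of 21 were called, with a median of 2.64, and of those with no match 11 of 23, with a median of 3.35. The extended class held both Hist2h3c2, with the highest difference of the 65 genes at 4.86, and Hist2h3c1, Hist1h1c, Hist3h2a, Hist1h1e, Hist3h2ba and Hist4h4, with the 6 lowest after that of Hist2h2be, which had no match. The cut of 100 bases was chosen after values were seen, the classes were not tested against each other, and they differ in exon length, with medians of 484, 1255 and 408 bases. Reads of these genes are hard to assign: 66 of the 70 share at least 1 window of 50 bases with another gene, and the median gene shares 49.6% of its windows.

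**Figure D4:**
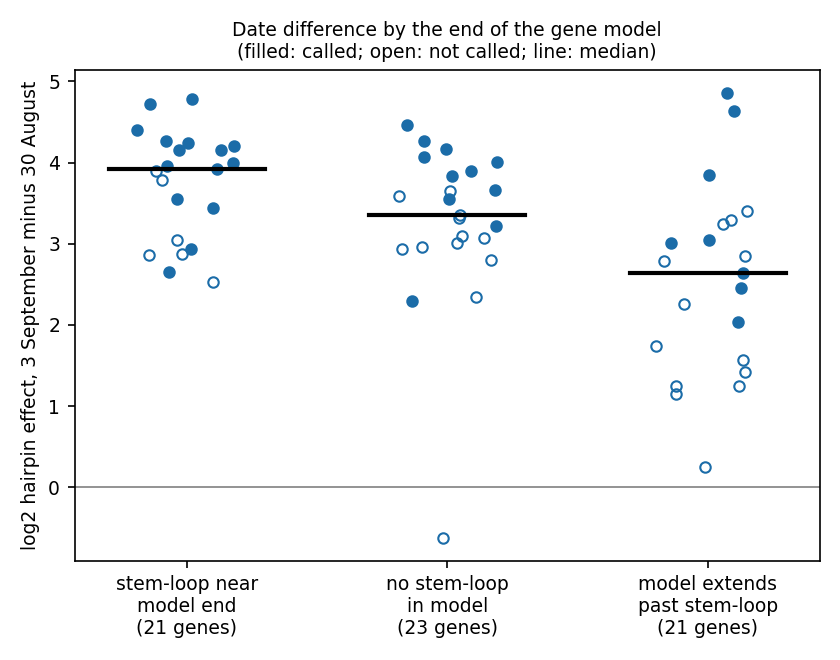
Difference of the hairpin effect between dates (log2, 3 September minus 30 August) for each of the 65 tested histone genes, by where the stem-loop lies in the gene model; filled points were called and black lines are medians. The medians are 3.92 for models ending near the stem-loop, 3.35 for those with no match and 2.64 for those extending past it.

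Histone RNA ran alongside RNA of S phase genes across the libraries. The 24 genes of a list of DNA replication and nucleotide synthesis genes summed to 1517, 856 and 1124 CPM with sh900, 1976, 1194 and 1671 CPM with sh902, and 939.6, 3134 and 485 CPM with shNT. Of the 9 libraries, 7 held the same rank in both sums, the exceptions being sh902 of 30 August and undated shNT. For Mki67, which marks cycling cells, the levels were 397, 176 and 343 CPM with sh900, 537, 299 and 472 CPM with sh902, and 297, 849 and 61.2 CPM with shNT, with the same 2 extremes. The ratio of the histone sum to the S phase sum was 5.32, 4.18 and 5.43 with sh900, 5.24, 4.27 and 5.46 with sh902, and 7.22, 3.99 and 5.92 with shNT. It was lowest in the 3 libraries of 30 August and highest in undated shNT, so the groups overlapped. The median difference between dates over the 24 S phase genes was 3.21. All 24 had an unadjusted p under 0.05 in edgeR's test, as had 1408 of the 17602 tested genes. DESeq2 called all 24, where it called 3.08% of all genes higher. Of the 24, edgeR called 13 higher after adjustment, against 1.37% of all tested genes. Among them were Mcm3, part of the replicative helicase, at 4.50 ± 0.46 (SE, adjusted p = 0.0164), Uhrf1, a factor of maintenance DNA methylation, at 4.80 ± 0.57 (adjusted p = 0.0211), and the nucleotide synthesis genes Tk1 and Rrm1 at 4.70 and 2.81. Neuronal markers, 8 genes in all, summed to 695, 558 and 1148 CPM with sh900, 656, 473 and 898 CPM with sh902, and 1234, 674 and 1945 CPM with shNT, with shNT highest at every label. Between the dates the neuronal sum was higher on 3 September in all 3 groups, as the histone sum was in both hairpin groups and not in shNT. None of the 7 tested neuronal genes was called in the difference between dates. Fibroblast markers, 7 genes, stood at 7.96, 1.36 and 49.5 CPM with sh900, 3.38, 1.41 and 24.4 CPM with sh902, and 18.3, 1.35 and 53.4 CPM with shNT and were highest on 3 September in each group. The part of S phase RNA and of either cell type in the histone differences was not tested.

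**Figure D5:**
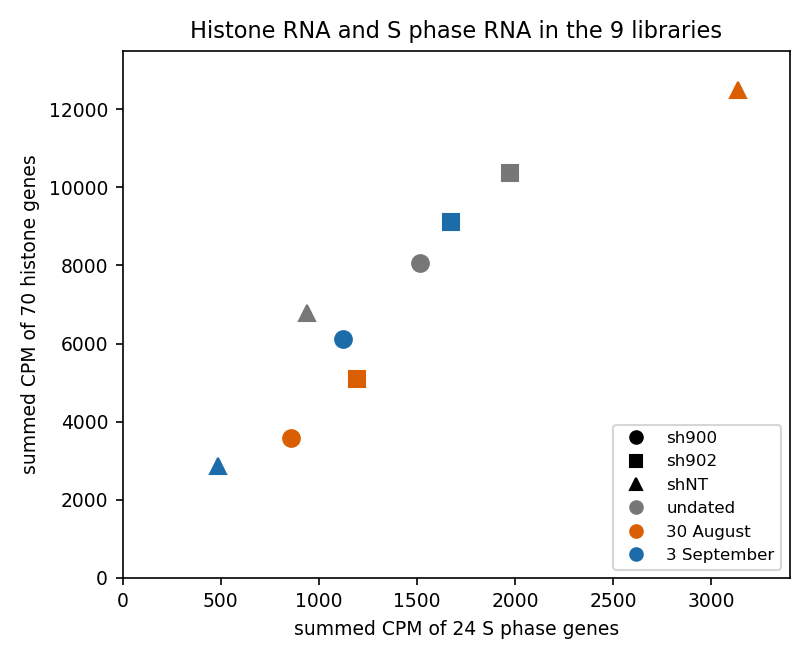
Summed CPM of the 70 histone genes (vertical axis) against summed CPM of 24 S phase genes (horizontal axis) in the 9 libraries; shape gives the hairpin and colour the date label. The shNT library of 30 August is at the upper right and that of 3 September at the lower left, with the other 7 libraries between.

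Genes that act on histones and their mRNAs are given by list, against the 1.37% of all tested genes called higher in the difference between dates. None of 18 matched genes for histone mRNA synthesis and processing was called in the difference between dates (edgeR, 2 at an unadjusted p under 0.05, DESeq2 1) or for the mean of both hairpins with the block (1 at an unadjusted p under 0.05). Slbp stood at 51.5, 43.8 and 39.1 CPM with sh900, 45.6, 37.3 and 42.8 CPM with sh902, and 27.3, 62.6 and 22.0 CPM with shNT, highest in the 30 August control and lowest in the 3 September control, with a difference of 1.44 ± 0.38 (SE, adjusted p = 0.242). Npat, the organiser of histone locus bodies, stood at 55.6, 55.1 and 61.4 CPM with sh900, 66.8, 55.9 and 65.2 CPM with sh902, and 71.7, 69.9 and 67.9 CPM with shNT and was below shNT in every hairpin library. DESeq2 called 6 of 19 histone chaperone and assembly genes in the difference between dates, and 3.08% of all genes higher. By edgeR 4 of the 19 were called higher, with a list median of 0.67. They were Chaf1a and Chaf1b, subunits of the replication-coupled assembly factor CAF-1, at 3.29 ± 0.38 and 4.19, the chaperone gene Asf1b at 3.90 and the helicase gene Mcm2 at 3.53. Of 11 genes listed as replication-independent histones, whose making is not confined to S phase, DESeq2 called 3. By edgeR 2 of the 11 were called higher, with a list median of 0.75. They were Cenpa, the centromeric H3, at 4.68 ± 0.62, and H2afx, whose protein is phosphorylated at DNA breaks, at 3.22 ± 0.47 (SE, adjusted p = 0.0272 and 0.0366).

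In that list of replication-independent histones, 3 genes fell for the mean of both hairpins with the replicate block, where 5.59% of all tested genes were called lower. H2afv, which encodes an H2A.Z form, stood at 43.9, 27.5 and 55.5 CPM with sh900, 22.7, 12.8 and 30.4 CPM with sh902, and 75.6, 64.6 and 63.3 CPM with shNT, and none of its hairpin libraries reached the lowest control. Its log2 fold change was -1.23 ± 0.18 (SE, edgeR adjusted p = 0.0093). By hairpin it was called for sh902, at -1.74 ± 0.23 (SE, adjusted p = 0.0078), and not for sh900, at -0.71 ± 0.22 (SE, adjusted p = 0.0822). The hairpins differed by -1.03 ± 0.22 (sh902 over sh900, SE, adjusted p = 0.0448). That difference stayed called without shNT of 30 August or shNT of 3 September (adjusted p = 0.0099 and 0.0410). It was lost without any other library (0.0687 to 0.229) and in the dated libraries alone (0.373). The sh902 call of H2afv was lost without undated sh902 (0.0670). H2afy2, a macroH2A gene, stood at 36.5, 23.0 and 57.7 CPM with sh900, 39.3, 26.7 and 46.1 CPM with sh902, and 70.1, 70.5 and 83.4 CPM with shNT, likewise without overlap, at -1.03 ± 0.15 (adjusted p = 0.0093). H1f0, the linker histone of non-dividing cells, stood at 85.3, 75.7 and 120.2 CPM with sh900, 74.0, 96.9 and 89.1 CPM with sh902, and 158, 144 and 147 CPM with shNT, also without overlap, at -0.73 ± 0.14 (adjusted p = 0.0157). H2afy2 and H1f0 were called for each hairpin in this fit (adjusted p = 0.0204 and 0.0452 with sh900, 0.0149 and 0.0219 with sh902). DESeq2 without the block called 3 of the 11 listed genes for the mean, in either direction, and 4.29% of all genes. Without the block edgeR's adjusted p values for the mean of H2afv, H2afy2 and H1f0 were 0.185, 0.199 and 0.182. With the block, leaving out undated shNT ended the call of each (adjusted p = 0.0652, 0.0520 and 0.113), and leaving out undated sh900, undated sh902 or sh902 of 3 September ended that of H1f0 (0.0575, 0.0641 and 0.0567). In the blocked fit on the dated libraries alone none of the 3 was called for the mean (adjusted p = 0.149, 0.117 and 0.238). Nor was any called there for either hairpin against shNT (0.134 to 0.442). Cell type markers were called lower in the same 9-library fit with the block: the neuronal genes Dcx, Map2, Snap25 and Tubb3 (4 of 7 tested, list median -1.15), the endothelial gene Kdr (1 of 3) and the fibroblast genes Pdgfrb and Thy1 (2 of 7). Of 14 neural stem cell markers, Hes5, Pax6 and Prom1 were called lower and Nes and Vim higher. The part of these cell types in the 3 falls was not tested.

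Histone mRNAs mostly lack a poly(A) tail, and the labels do not say whether poly(A) RNA was selected. A list of 10 other RNAs made without such a tail, of which Rnu11, Rnu12, Rny1 and Rny3 were under 0.5 CPM in every library, summed to 52372, 31011 and 21976 CPM with sh900, 25840.0, 47473 and 34146 CPM with sh902, and 22325, 46283 and 46791 CPM with shNT. The dated controls, with the highest and the lowest histone sums, were within 1.1% of each other in this sum. The undated control stood well below both at 22325 CPM, and all libraries ran from 21976 to 52372 CPM. The part of RNA selection in the histone differences was not tested. None of its 6 tested genes was called in the difference between dates (median 0.19; edgeR, 1 at an unadjusted p under 0.05, DESeq2 0). For the mean of both hairpins with the block 1 of the 6 was called lower, Terc, the telomerase RNA, at -0.97 ± 0.22 (SE, adjusted p = 0.0299). In that fit 5.59% of all tested genes were called lower.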

How the data were processed

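Per the labels' protocols, total RNA was isolated with a column kit, fragmented and copied from random primers; poly(A) selection and strand are not stated. The authors deposited estimated counts per gene, made with FastQC, cutadapt, Trimmomatic 0.36, STAR 2.5.0a and RSEM on GRCm38, per the submitters' processing notes; the annotation release is not given in the sources used here. RSEM divides reads that match several genes by a model, which bears on these near-identical genes. The deposited estimated counts were already whole numbers. Symbols, coordinates, exon lengths and transcripts came from GENCODE M21, by Ensembl identifier (54079 identifiers matched, 153 did not). The 5 histone genes below the filter entered sums only.

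Levels are CPM by library total. Tests used edgeR 4.0.16's quasi-likelihood F test (R 4.3.3, robust, TMM factors, expression filter by group, 17602 genes with 99.9% of counts), with Benjamini-Hochberg adjustment over all of them and a threshold of 0.05; standard errors were computed as the absolute log2 fold change over the root of the F statistic. Group comparisons used a model of 3 groups, and comparisons between dates a model of 6 cells (date label by hairpin or control, 3 residual degrees of freedom). Log2 differences within a label used a prior count of 2. The dated libraries were treated as paired because their titles share a date: deviations from group means correlated at 0.401 to 0.630 within 30 August, 0.455 to 0.645 within 3 September and, between groups, at -0.661 to 0.301 between labels and at 0.0792 to 0.399 among the undated libraries, which may be paired. No replicates were duplicates (lowest chi-square per degree of freedom within a group 56.5). Scripts were tested on simulated data. Alternatives were DESeq2 1.42.0, RLE factors, library size alone, other filters, fits without the undated libraries and fits without each library in turn.

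Named genes were Phf2, the 4 members of each type with the highest CPM per kb, called members (up to 12 per comparison), members opposite in sign to their type at both dates, and up to 4 called genes of each list; further genes were chosen after their values were seen. The histone genes, lists and rules were chosen with earlier results of these data known.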

Additional observations from a re-analysis of the deposited data

Results flagged for a closer look

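The results below share a single ground for a second look: the hairpin effect against shNT differed between the 3 September and the 30 August libraries by edgeR's test of that difference, adjusted over all genes. It did so for 34 of the 65 tested histone genes, all in the direction of a higher effect on 3 September. Among the named H1 and H2A genes, the log2 difference was 4.26 for Hist1h1b, 4.24 for Hist1h2ap, 4.17 for Hist1h2af, 4.73 for Hist1h2ag, 4.01 for Hist1h2ah and 3.66 for Hist1h2ak. Among the H2B genes it was 3.05 for Hist1h2bg, 3.96 for Hist1h2bb, 4.15 for Hist1h2bk, 3.83 for Hist1h2bl and 3.22 for Hist1h2br. Among the H3 and H4 genes it was 4.79 for Hist1h3c, 3.55 for Hist2h3b, 2.45 for Hist1h3e, 2.94 for Hist1h4n, 2.65 for Hist1h4h, 3.92 for Hist1h4f and 4.26 for Hist1h4b. Genes of chaperones and of replication-independent histones showed it too, at 3.29 for Chaf1a, 3.90 for Asf1b, 3.53 for Mcm2, 4.19 for Chaf1b, 4.68 for Cenpa and 3.22 for H2afx. So did S phase genes, at 4.50 for Mcm3, 4.80 for Uhrf1, 2.81 for Rrm1 and 4.70 for Tk1. In each case the date is represented by 1 control library and 2 hairpin libraries. Groups of 3 libraries were not examined for single outlying values.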

How the results depend on the processing

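The count of called histone genes for the mean of both hairpins was 0 without the replicate block, 1 with the replicate block and 1 with DESeq2, and 0 to 46 with a library left out. For sh900 it was 0, with the replicate block 1 and with DESeq2 1, and 0 to 16 with a library left out; for sh902 0, and 0 to 52; for sh902 against sh900 0, with DESeq2 1, and 0 to 3. The upper ends all came from leaving out the shNT library of 30 August with the block. With all 9 libraries the block changed no call of a histone gene apart from Hist2h3c1. For the difference between dates 34 genes were called, and DESeq2 gave 57, no filter 57 (of 70 tested), library size alone 19, the dated libraries alone 16, and left-out libraries 0 to 35; it could not be fitted without either dated control. On 30 August DESeq2 called 52 and the unfiltered fit 57, all lower; on 3 September they called 47 and 53, all higher; among undated libraries 2 and 3. For 3 September against 30 August in hairpin libraries the count was 1, against 18 with DESeq2, 35 without the filter, 2 by library size alone, 0 with the dated libraries alone and 0 to 1 with a library left out. The difference of Hist2h2be was -0.63 with all libraries and -1.21 to 0.65 with a library left out, above 0 without sh902 of 30 August. Of the other alternative values of single genes and summed levels, 641 kept direction and call, 70 gained and 93 lost a call. Where a setting changed a result, the cause was not tested. Genes under about 1 CPM rest on few counts.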
